A study of Mus musculus with 18 samples.

Results

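The cells described here are macrophage-lineage cells of mouse dorsal dermis that hold transcripts of the complement component C1q and none of a set of 4 genes that mark the main C1q-expressing macrophages of this tissue, namely Lyve1, Fcna, Cd209f and Timd4. A cell was taken when 850 to 7800 genes were detected, when mitochondrial transcripts made up less than 13% of its unique molecular identifiers (UMIs, 1 per captured transcript), when C1qa, C1qb and C1qc each had at least 3 UMIs, and when Pdgfra (a receptor of dermal fibroblasts), Lyve1, Fcna, Cd209f and Timd4 all had 0. This gave 366 Lyve1-negative C1q cells, which were 2.17% of the 16877 cells that passed the filter on genes and mitochondrial UMIs and 19.4% of the 1889 C1q cells. The other 1523 C1q cells, each with at least 1 UMI of the 4 genes, are called C1q cells with Lyve1-set UMIs below.

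The study followed the skin through the day by droplet single-cell RNA sequencing (10x Genomics 3' v3 chemistry). Wild-type (WT) male C57BL/6J mice, described as young adult, were kept in a 12:12 light-dark cycle, and no treatment or mutation was applied. Skin was taken at 6 zeitgeber times (ZT, hours after lights on): ZT2, ZT6, ZT10, ZT14, ZT18 and ZT22, with 3 mice at each and 1 library per mouse, so that the library is the unit of replication and the replicate number marks the day of collection. The minced skin was digested with collagenase at 37 °C and sorted for live cells only, so that no gate selected or removed macrophages.

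Skin macrophages come from embryonic precursors and from blood monocytes, which enter the dermis through the chemokine receptor Ccr2 and lose the surface protein Ly6C as they mature. C1q, the mannose receptor Mrc1, the lectin Mgl2 and the adhesion receptor Adgre1 (F4/80) are usual markers of the mature cells, while Lyve1, Folr2, Cd163 and Timd4 mark long-lived cells that lie near vessels. The circadian clock of these cells is a loop in which Clock and Arntl (Bmal1) drive the Per, Cry, Nr1d and Dbp genes, whose products feed back on the loop or on its outputs.

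The 18 libraries held 4850221 to 40827442 UMIs each, and a Lyve1-negative C1q cell held a median of 11495.5 UMIs and 2767 genes, against 12944 UMIs and 3201 genes in a C1q cell with Lyve1-set UMIs. By library there were 8, 4 and 97 of the Lyve1-negative cells at ZT2 (replicates 1, 2 and 3), 11, 12 and 20 at ZT6, 23, 22 and 10 at ZT10, 29, 31 and 42 at ZT14, 4, 7 and 15 at ZT18, and 8, 14 and 9 at ZT22. Levels and rhythm tests were therefore computed over the 12 libraries with at least 10 of these cells (326 cells), unless stated otherwise. Of these libraries 1 each came from ZT2, ZT18 and ZT22 and 3 each from ZT6, ZT10 and ZT14. Values over all 18 libraries include the 6 with under 10 of these cells. Levels are UMIs per 10000, that is the UMIs of a gene summed over the cells of a library and divided by all their UMIs. Among cells passing the filter 36 barcodes occurred in more than 1 library, and 2 of the 366 cells carried a barcode of such a cell in another library (4 when all barcodes are counted).

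One library stood apart. ZT2 replicate 3 held 97 of the 366 cells (26.5%), and a summed list of 6 monocyte markers reached 48.4 per 10000 in its Lyve1-negative cells, against 3.99 to 21.8 in those of the other 17 libraries. In the same library the list also summed to 23.8 in other Ptprc-positive cells and to 8.48 in C1q cells with Lyve1-set UMIs. Results that rest on this library are given with and without it, and 269 cells remain when it is left out.

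The macrophage label was checked against markers that did not choose the cells. Ptprc (CD45, the common leukocyte antigen) was seen in 345 cells (94.3%), Mrc1 in 93.4% and Adgre1 in 90.2%, and Pf4 in 76.2%. Fibroblasts were taken here as cells with Pdgfra UMIs, without a Ptprc UMI and with no UMI of 1 or more C1q genes. This choice left out cells with leukocyte RNA, so low shares of macrophage genes in them are partly set by it. In these fibroblasts, which should lack Mrc1 and Adgre1 and were sequenced deeper (median 22133 UMIs), the shares were 3.99% and 0.413%. Mgl2 was found in only 54.4% of the Lyve1-negative cells, against 96.3% of the C1q cells with Lyve1-set UMIs and 0.635% of fibroblasts. Ccr2 was found in 87.7%, against 21.7% of C1q cells with Lyve1-set UMIs, and the monocyte antigen gene Ly6c2 in 33.1% against 0.854%. Without ZT2 replicate 3, Ly6c2 was found in 21.2% of them (57 of 269 cells). The label macrophage thus covers cells that hold monocyte transcripts as well, and the name Lyve1-negative C1q cells is kept.

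Markers of lymphocytes, mast cells, neutrophils and dendritic cells summed to less than in other Ptprc-positive cells. Those of monocytes, fibroblasts and muscle did not. The 6 monocyte markers summed to 11.8 per 10000 in the median library, against 6.18 in other Ptprc-positive cells. In the median library the 5 NK cell markers summed to 0 per 10000 (2.55 in other Ptprc-positive cells), the 4 mast cell markers to 0 (6.61), and the 5 neutrophil markers to 0.329 (4.88), of which 92.7% was Csf3r. The 8 dendritic cell markers summed to 1.62 (4.91 in other Ptprc-positive cells), with 53.9% of it from Batf3, and the Langerhans cell genes Cd207 and Epcam had no UMI. The 6 fibroblast markers, led by Col1a1, summed to 7.74 in the median library and to 28.4 in the highest, ZT14 replicate 3, beside 6.21 in other Ptprc-positive cells and 6.72 in C1q cells with Lyve1-set UMIs. The 4 red blood cell markers, led by Hbb-bs, summed to 4.66 (5.80 in other Ptprc-positive cells), with 3 or more of them in 27.6% of the cells. The 4 muscle markers summed to 0.749 (0.577), the 7 T cell markers to 0.270 (1.15) and the 4 B cell markers to 0.273 (0.297), the last from Cd79b alone. The part of fibroblast, red blood cell and muscle transcripts in the results was not tested.

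Because C1q and Lyve1-set UMIs chose the cells, the cells next to the thresholds are described first. The 28 members of the group whose lowest C1q gene had exactly 3 UMIs were shallow (median 6944 UMIs), and so were the 44 cells left out with exactly 2 (5257.5 UMIs). Ccr2 stood at 11.6 per 10000 in the former and 8.07 in the latter, and Mgl2 at 2.31 and 1.36. The 65 C1q cells with exactly 1 Lyve1-set UMI (median 9545 UMIs) had Ccr2 at 7.44, below both values. Their Mgl2 stood at 8.64, Folr2 at 6.17 (1.09 and 0.445 on the C1q edge) and Ccl8 at 47.1 (1.59 and 2.99). Cells with a Ly6c2 UMI made up 32.1% of the first set, 15.9% of the second and 7.69% of the third.

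The share of the 366 Lyve1-negative C1q cells among these and the 2721 other Ptprc-positive cells without Pdgfra had no detectable 24 h rhythm over all 18 libraries. Cells without a Ptprc UMI (all but 345 of the 366) are in both counts. The share was 5.23, 2.07 and 23.3% at ZT2, 7.10, 19.0 and 15.2% at ZT6, 12.6, 9.61 and 12.3% at ZT10, 11.2, 18.02 and 16.4% at ZT14, 15.4, 9.09 and 10.9% at ZT18, and 3.00, 7.22 and 9.38% at ZT22. The values at ZT2 spanned the whole range, and those at ZT14 lay above those at ZT22. A 24 h cosine had an amplitude of 2.96 percentage points around a mean of 11.5% with a peak at ZT 11.2 (one-sided permutation test with 100000 draws, n = 18 libraries, p = 0.309). Without ZT2 replicate 3 the amplitude was 4.52 points and p was 0.0218, so this single library set the side of the threshold. With the cells that had a Ptprc UMI alone, as an alternative added after seeing the data, the highest share was 22.8% and the amplitude 2.54 points (permutation test, p = 0.402).

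**Figure D1:**
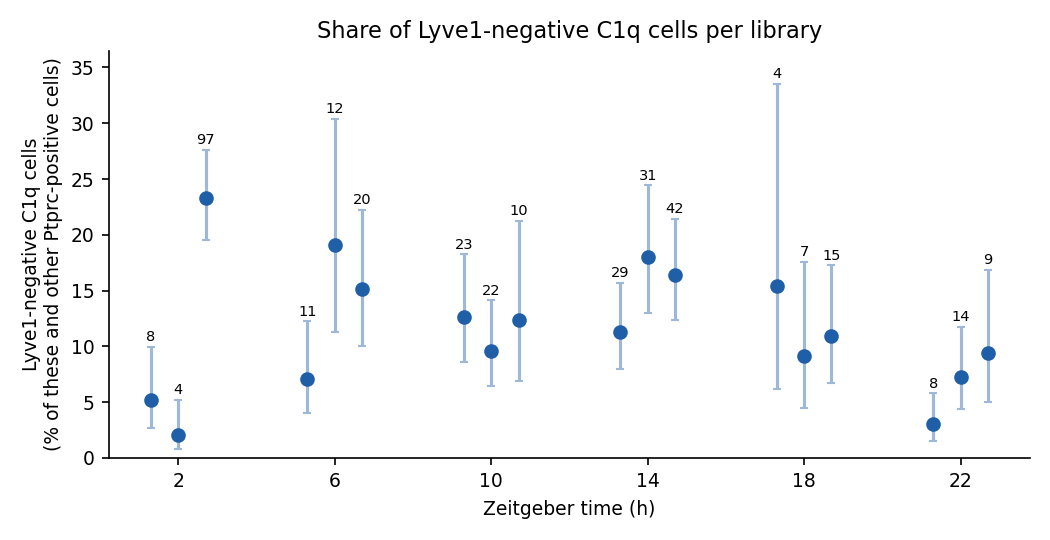
Lyve1-negative C1q cells as a percentage of these and other Ptprc-positive cells together (y axis) against zeitgeber time in hours (x axis), 1 point per library with its 95% Wilson interval, which covers counting error only, and the number of cells above it. ZT2 replicate 3 is the highest point at 23.3% and ZT2 replicate 2 the lowest at 2.07%.

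Against other Ptprc-positive cells of the same libraries, the Lyve1-negative cells held more transcripts of Ccr2, the phagocyte receptor Cd93 and the pore-forming protein Mpeg1. They held fewer of the chemokine Ccl8 and of a group of lectin and scavenger receptors. These differences have no test, since the cells were chosen by their transcripts. The comparator is 2721 cells with Ptprc and without Pdgfra, of which 1405 (51.6%) are C1q cells with Lyve1-set UMIs, so it leans towards those cells. A gene was counted as higher or lower when the geometric mean ratio over the 12 libraries was at least 2 (or at most 0.5) and all 12 libraries went the same way. Of 2984 genes at 0.5 per 10000 or more in either group, 11 were higher (0.369%) and 54 lower (1.81%). The 4 genes of the Lyve1 set are among the lower ones. Of the 2511 genes at that minimum in both groups, 7 were higher and 15 lower. With a pseudocount of 0.5 only 5 genes were higher, Axl not among them, and in members without Ly6c2 UMIs, an alternative added after seeing the data, only 4 were, with neither Cd93 nor Mpeg1 among them.

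Cd93, a receptor of phagocytes and endothelium, stood at 2.56 ± 1.35 per 10000 (SD, n = 12 libraries) against 0.692 ± 0.320 in other Ptprc-positive cells, a ratio of 3.26. Axl, a receptor for apoptotic cells, stood at 0.999 ± 0.401 against 0.270 ± 0.109 (ratio 2.88), and Mpeg1 at 5.17 ± 1.40 against 2.20 ± 0.554 (ratio 2.27). Axl is also a fibroblast transcript, at 7.78 per 10000 there, and its ratio fell to about equality (log2 ratio 0.04 against 1.53) when comparator cells with Pdgfra were let in, as did that of the transcription factor gene Creb5 (0.19 against 1.19). Of 5 efferocytosis genes Axl was the only one higher and none was lower. The median log2 ratio of the list was -0.66, against -0.07 over all genes tested. Axl reached the minimum level in the Lyve1-negative cells alone. Of the 4 listed genes at the minimum in both groups, 0 were higher and 0 lower, beside 7 and 15 of 2511 over all genes.

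Ccr2, the receptor for monocyte chemoattractants, ranged from 5.77 to 13.1 per 10000 with a median of 9.36. In other Ptprc-positive cells it ranged from 2.63 to 7.12 with a median of 3.84, and in C1q cells with Lyve1-set UMIs from 0.855 to 2.57 with a median of 1.95. The ranges of the Lyve1-negative and the Lyve1-set cells did not overlap. The other higher genes were the inhibitory lectin gene Clec12a (ratio 2.52), Creb5, the lipid droplet coat gene Plin2 (2.21), Cd300c2 (2.16), Tmem65 (2.06) and Zfand2a (2.06). Creb5, Tmem65 and Zfand2a stood at 0.272, 0.408 and 0.396 per 10000 in other Ptprc-positive cells. They reached the minimum of 0.5 in the Lyve1-negative cells alone.

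Of genes counted as lower in this comparison, the 10 lowest outside the Lyve1 set include genes of cell types that the C1q condition removes. Gzma and Nkg7, granule genes of cytotoxic lymphocytes, stood at 1.15 and 0.882 per 10000 in the comparator and at 0 and 0.0307 in the Lyve1-negative cells, where 0 UMIs allow a level of up to 0.00738. The NK receptor gene Klrd1 (ratio 0.161), the chemokine gene Ccl5 (0.121) and Hdc, the histidine decarboxylase of mast cells and basophils (0.103), were low in the same way. The remainder were 3 lectins of the Cd209 family, to which Cd209f of the Lyve1 set belongs, namely Cd209g (0.0528 ± 0.0713 against 2.54 ± 0.490), Cd209d (0.435 ± 0.420 against 3.82 ± 1.08) and Cd209b (0.253 ± 0.625 against 1.44 ± 0.450), and the complement component C6 and the peptidase Enpep.

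Ccl8, a chemokine that attracts monocytes and other leukocytes, ranged from 0.108 to 34.5 per 10000 (median 12.8), against 19.5 to 56.2 (median 35.9) in other Ptprc-positive cells and 36.1 to 107 (median 64.5) in C1q cells with Lyve1-set UMIs. It was lower in all 12 libraries in both comparisons, with ratios of 0.186 and 0.1004. Only 32.5% of the cells had a Ccl8 UMI, against 92.0% of C1q cells with Lyve1-set UMIs and 21.7% of fibroblasts. One cell of ZT10 replicate 1 gave 346 of the 813 Ccl8 UMIs of that library, the library with the highest level.

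Mgl2, a lectin for galactose and N-acetylgalactosamine residues, did not separate the Lyve1-negative cells from other Ptprc-positive cells. It ranged from 1.86 to 14.2 per 10000 (median 4.91), against 3.27 to 8.46 (median 6.50), and was lower in 8 and higher in 4 of the 12 libraries. Against C1q cells with Lyve1-set UMIs, which ranged from 5.75 to 15.2 (median 10.9), it was lower in 11 of 12 with a ratio of 0.456, which misses the rule by 1 library. On GRCm38 (mm10) Mgl2 lies at chr11:70130329-70137550, Ccl8 at chr11:82115185-82116799, Ccr2 at chr9:124101950-124113557 and Ly6c2 at chr15:75108158-75111970, and the 3' reads count transcripts of the whole gene.

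**Figure D2:**
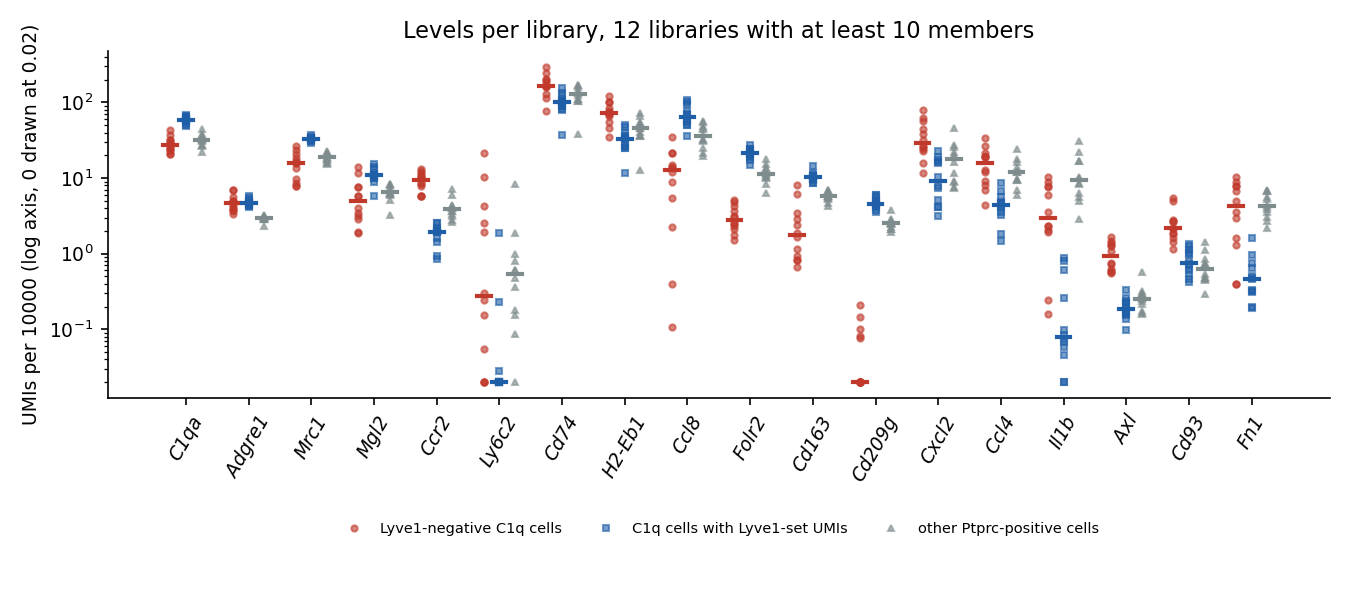
UMIs per 10000 (log axis, with 0 drawn at 0.02) of 18 genes in Lyve1-negative C1q cells, C1q cells with Lyve1-set UMIs and other Ptprc-positive cells, 1 point per library for the 12 libraries used and a short bar at the median. Ccr2 is highest in the Lyve1-negative cells, at a median of 9.36, while Ccl8, Folr2, Cd163 and Cd209g are lowest there.

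Which cells of the series are most like the Lyve1-negative cells was not measured. The C1q cells with Lyve1-set UMIs met the same C1q and Pdgfra conditions. Relative to these, 3 of 6 chemokine receptors and 4 of 7 MHC class II genes were higher. Of scavenger and lectin receptors 9 of 13 were lower, and of tissue support genes 6 of 12. Of 3141 genes, 65 were higher (2.07%) and 145 lower (4.62%, including the 4 Lyve1-set genes and C1qa and C1qc, on which the cells were also chosen). The largest ratios were those of Il1b (11.5), the lysozyme gene Lyz1 (9.37), the signalling regulator Rgs1 (7.11), fibronectin Fn1 (5.59) and the lipoprotein lipase Lpl (5.35). Fn1 and Lpl are abundant in fibroblasts too, with a UMI in 99.4% and 93.0% of them. Outside the Lyve1 set, the lowest were Cd209g (0.0294), Cd209d (0.0608), Cd209b (0.0669), C6 (0.0795) and Enpep (0.0860). Reads shared between close copies such as the Cd209 genes, or Lyz1 and Lyz2, cannot be assigned with certainty.

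Among the chemokines, 3 of 15 tested were higher and 2 lower. Cxcl2, which attracts neutrophils, ranged from 11.7 to 78.5 per 10000 (median 29.4), against 3.13 to 22.7 (median 9.05) in C1q cells with Lyve1-set UMIs, a ratio of 3.47. Ccl3 stood at 6.51 ± 2.71 against 1.88 ± 1.45 and Ccl4 at 16.1 ± 8.73 against 4.47 ± 1.95. Ccl8 and the eosinophil chemokine Ccl24 (1.77 ± 1.67 against 6.21 ± 1.66) were the lower members. Ccl2 and Ccl7, ligands of Ccr2, were on neither side, at 13.99 against 10.5 and 9.78 against 10.1. Of the same list 0 of 17 were higher and 2 lower relative to other Ptprc-positive cells, and Cxcl2 was higher there in 10 of 12 libraries. Of the 15 chemokines at the minimum in both of those groups 0 were higher and 1 lower, beside 7 and 15 of 2511 over all genes.

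Of 6 chemokine receptors, Ccr2, Ccrl2 (2.77 against 0.574) and Cxcr4 (6.28 against 2.60) were higher than in C1q cells with Lyve1-set UMIs, and the median log2 ratio of the list was 1.67, against -0.10 over all genes tested. In the list of NF-kappaB targets and cytokines 5 of 11 were higher and 0 lower, with a median log2 ratio of 1.44. Il1b, Il1rn and Nlrp3 reached the minimum of 0.5 per 10000 in the Lyve1-negative cells alone, and of the 5 listed genes at the minimum in both groups 2 were higher, beside 39 of 2406 over all genes. The 5 higher genes were Il1b, the interleukin 1 receptor antagonist Il1rn, the inflammasome sensor Nlrp3 and the feedback inhibitors Nfkbia and Tnfaip3. Il1b ranged from 0.161 to 10.3 per 10000 (median 2.95) against 0 to 0.879 (median 0.0792). It was not high for a leukocyte, since other Ptprc-positive cells ranged from 2.87 to 30.8 (median 9.36) and lay above the Lyve1-negative cells in 10 of 12 libraries.

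Immediate early genes, which are transcribed within minutes of a stimulus and also during enzymatic dissociation, were abundant in all groups, and none passed the rule in either comparison (0 of 22 and 0 of 21). Fos ranged from 17.3 to 45.8 per 10000 (median 26.7), against 9.06 to 31.1 (median 15.6) in other Ptprc-positive cells and 8.50 to 42.6 (median 19.3) in C1q cells with Lyve1-set UMIs. Junb stood at 28.6, 20.02 and 19.0, Atf3 at 14.2, 9.90 and 9.38, and Egr1 at 8.59, 5.25 and 6.47 in the same order. The median log2 ratio of the list was 0.41 and 0.46, beside -0.07 and -0.10 over all genes tested. Of 8 heat shock genes, induced by warming, none passed in either comparison, and Hspa1a was 31.5 against 21.3 and 21.7, higher in all 12 libraries. The part of the digestion at 37 °C was not tested.

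MHC class II genes, which present peptides to T cells, were higher than in C1q cells with Lyve1-set UMIs for 4 of 7 members (H2-Eb1, H2-DMa, H2-DMb1 and the transactivator Ciita), with a median log2 ratio of 1.06. Of the 6 members at the minimum in both groups 3 were higher, beside 39 of 2406 over all genes. H2-Eb1 ranged from 35.0 to 122 per 10000 (median 73.4) against 11.7 to 50.1 (median 33.2). The remaining 3 of the 7 members were higher in all 12 libraries at ratios under 2. Cd74 stood at 176 ± 58.1 against 100 and H2-Ab1 at 68.1 against 34.3. Against other Ptprc-positive cells 0 of 7 passed the rule.

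Scavenger and lectin receptors were lower for 9 of 13 members relative to C1q cells with Lyve1-set UMIs, and for 5 of 12 relative to other Ptprc-positive cells. Among members at the minimum level in both groups the counts were 5 of 8 and 2 of 8. Over all genes at the minimum in both groups, 75 of 2406 and 15 of 2511 were lower. The folate receptor Folr2 ranged from 1.51 to 5.07 per 10000 against 14.97 to 27.5, and the haptoglobin-haemoglobin receptor Cd163 from 0.671 to 8.22 against 8.62 to 14.4, with no overlap between the groups. Mrc1 stood at 15.5 ± 6.25 against 33.0 ± 2.02 (ratio 0.435), and Clec10a, Colec12, Stab1, Siglec1 and both listed Cd209 genes were also low. Of 12 tissue support genes 6 were lower, among them the selenium carrier Selenop (29.6 against 70.0), the Axl ligand Gas6 (2.83 against 10.2), the endothelin receptor Ednrb (1.16 against 8.71) and Pdgfc. Of the 10 tissue support genes at the minimum in both groups 5 were lower, beside 75 of 2406 over all genes. Of 6 efferocytosis genes, Axl was among 2 higher and Gas6 and Pros1 among 3 lower. Axl reached the minimum level in the Lyve1-negative cells alone. Of the 4 efferocytosis genes at the minimum in both groups, 1 was higher and 3 were lower, beside 39 and 75 of 2406 over all genes. Retnla, a secreted protein of alternatively activated macrophages, ranged widely, from 12.0 to 177 (median 76.5), against 85.5 to 232 (median 147).

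Of the other lists, none of 8 interferon response genes, none of 8 heat shock genes and 1 of 16 lipid and lysosome genes (Lpl) passed against C1q cells with Lyve1-set UMIs. Of 6 iron handling genes 1 was lower, and of 18 macrophage markers 7 were lower and none higher. C1qa and C1qc, by which the cells were chosen, are among those 7.

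Within the 366 cells, Mgl2 and Ly6c2 were seldom found together. After 322 cells were thinned to 5000 UMIs each (44 cells had fewer), 147 held Mgl2 without Ly6c2, 92 Ly6c2 without Mgl2, 79 neither and 4 both. Thus 2.65% of Mgl2 cells had a Ly6c2 UMI against 53.8% of the remainder, and before thinning the counts were 186, 108, 59 and 13. With ZT2 replicate 3 left out, the 233 thinned cells split into 123, 40, 69 and 1. Ly6c2 cells came from few libraries: 64 of 97 cells in ZT2 replicate 3, 11 of 23 in ZT10 replicate 1, 14 of 29 in ZT14 replicate 1, 15 of 42 in ZT14 replicate 3 and 4 of 7 in ZT18 replicate 2, with none in 7 of the 18 libraries. Of fibroblasts 2.12% held a Ly6c2 UMI and 0.635% an Mgl2 UMI.

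**Figure D3:**
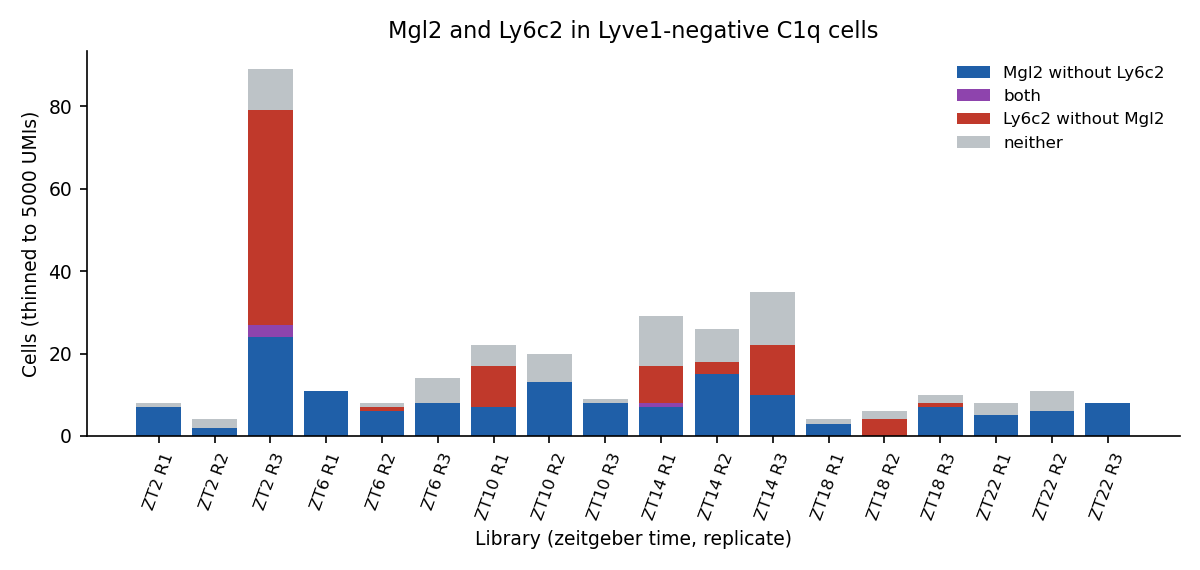
Lyve1-negative C1q cells per library, each thinned to 5000 UMIs, stacked by whether they held Mgl2, Ly6c2, both or neither. Cells with Ly6c2 and without Mgl2 (92 in all) lie mainly in ZT2 replicate 3, ZT10 replicate 1, ZT14 replicate 1 and ZT14 replicate 3, and cells with both number 4.

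The Mgl2 and Ly6c2 cells differed in many other genes. In the 4 libraries with at least 5 cells of each kind, 62 of 1499 genes at 1 per 10000 or more were higher with Mgl2 in every library and at least 2-fold higher in the geometric mean (4.14%), and 177 were so with Ly6c2 (11.8%). Without ZT2 replicate 3 the counts were 78 and 212, of which 60 and 170 were shared with the former. Without ZT14 replicate 3 they were 106 and 226, of which 61 and 160 were shared. Since a UMI of a gene divided the cells, these are descriptions with no test, and a class made this way is a range and not a cell type.

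Interferon response genes were higher in Ly6c2 cells for 6 of 7 listed members, among them Ifit2, Isg15, Irf7 and Rsad2, and for 6 or 7 of them when any 1 of the 4 libraries was left out. Isg15, a ubiquitin-like protein induced by interferon, stood at 7.62 per 10000 in Ly6c2 cells against 2.17 in Mgl2 cells of ZT2 replicate 3. It stood at 4.60 against 0 in ZT10 replicate 1, at 18 against 2.57 in ZT14 replicate 1, and at 1.67 against 1.20 in ZT14 replicate 3. The direction was shared by the 4 libraries, and the difference was small in the last. Chemokine receptors were higher in Ly6c2 cells for 5 of 6 members, among them Ccr1, Cx3cr1 and Cxcr4, and lipid and lysosome genes for 6 of 15 (Abcg1, Fabp5, Gpnmb, Spp1, Lgals3 and Ctsl). Many of these genes reached the minimum of 1 per 10000 in the Ly6c2 cells alone. Of the genes at the minimum in both kinds of cells, the counts were 1 of 1 for interferon response, 4 of 5 for chemokine receptors and 3 of 12 for lipid and lysosome genes, beside 85 of 1001 over all genes. The monocyte gene Plac8 stood at 21.8, 7.60, 6.67 and 2.83 in Ly6c2 cells of the 4 libraries in the same order, against 0.0833, 0, 0.857 and 0.200 in Mgl2 cells, so that ZT2 replicate 3 had the highest level and ZT14 replicate 3 the lowest. Spp1, a secreted phosphoprotein, stood at 2.50, 2.40, 12.7 and 0.333 in Ly6c2 cells and was at 0 in the Mgl2 cells of all 4. Ccr2 itself was found in 96.7% of Ly6c2 cells and 84.4% of Mgl2 cells.

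Mgl2 cells were higher for 3 of 7 MHC class II genes (H2-Ab1, H2-Eb1 and Cd74), and 4 of 10 tissue support genes (Igf1, Gas6, F13a1 and Retnla). Among genes at the minimum in both kinds of cells these counts were 3 of 6 and 2 of 7, beside 25 of 1001 over all genes. Cd209a, the only one of the dendritic cell markers at the minimum, was also on the Mgl2 side in all 4 libraries, at 1.36 per 10000 (21.1% of cells) against 0, and its part in the MHC class II differences was not tested. Of 17 macrophage markers, 4 were higher in Mgl2 cells (Mrc1, Cd163, F13a1 and Cd14) and 2 in Ly6c2 cells (Fcgr1 and Ms4a7). Of 14 chemokines 1 was higher in Mgl2 cells (Ccl24) and 1 in Ly6c2 cells (Ccl3). Cd163 and Ccl24 reached the minimum in the Mgl2 cells alone. Of genes at the minimum in both kinds of cells, 3 of 16 macrophage markers were higher in Mgl2 cells and 2 in Ly6c2 cells. For the 11 such chemokines the counts were 0 and 1. H2-Ab1 stood at 78.6 against 34.7 in ZT2 replicate 3, 58 against 31.2 in ZT10 replicate 1, 59.7 against 19.3 in ZT14 replicate 1, and 98 against 50.8 in ZT14 replicate 3. Retnla stood at 177 against 3.69, 92.9 against 0.800, 56.3 against 0.222, and 131 against 0.667 in the same libraries. A Retnla UMI was found in 42.2% of the thinned Mgl2 cells, against 17.4% of Ly6c2 cells and 4.14% of thinned fibroblasts. Cells with neither Mgl2 nor Ly6c2 stood at 99.0 per 10000. The part of Retnla RNA from other cells was not tested. The tetraspanin Cd81 was at 4.57 to 6.57 per 10000 in the Mgl2 cells of the 4 libraries against 0 to 1.17 in Ly6c2 cells, and Cd163 at 2.60 to 8.29 against 0 to 0.667. Of 18 immediate early genes only Fosl2 met the rule, on the Ly6c2 side. Hbb-bs, a red blood cell gene, was also on the Mgl2 side, and its part in the other differences was not tested.

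Other genes tended to occur in the same thinned cells. Of the 142 cells with Ccl3, 77.5% held Ccl4, against 29.4% of cells without Ccl3. Of the 114 cells with Retnla, 40.4% held the eosinophil-associated ribonuclease Ear2 against 3.85% of the remainder, and 57 of the 114 held Lyz1, against 12.0% of the remainder. Of the 83 cells with Ccl8, 80.7% held Folr2 against 36.8%. Cxcl2 and Egr1 were less tightly linked, with Egr1 in 55.7% of Cxcl2 cells and in 39.0% of the remainder. A single cell gave 1034 of the 1678 Cxcl2 UMIs of ZT6 replicate 3, the library with the highest Cxcl2 level among the 12.

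**Figure D4:**
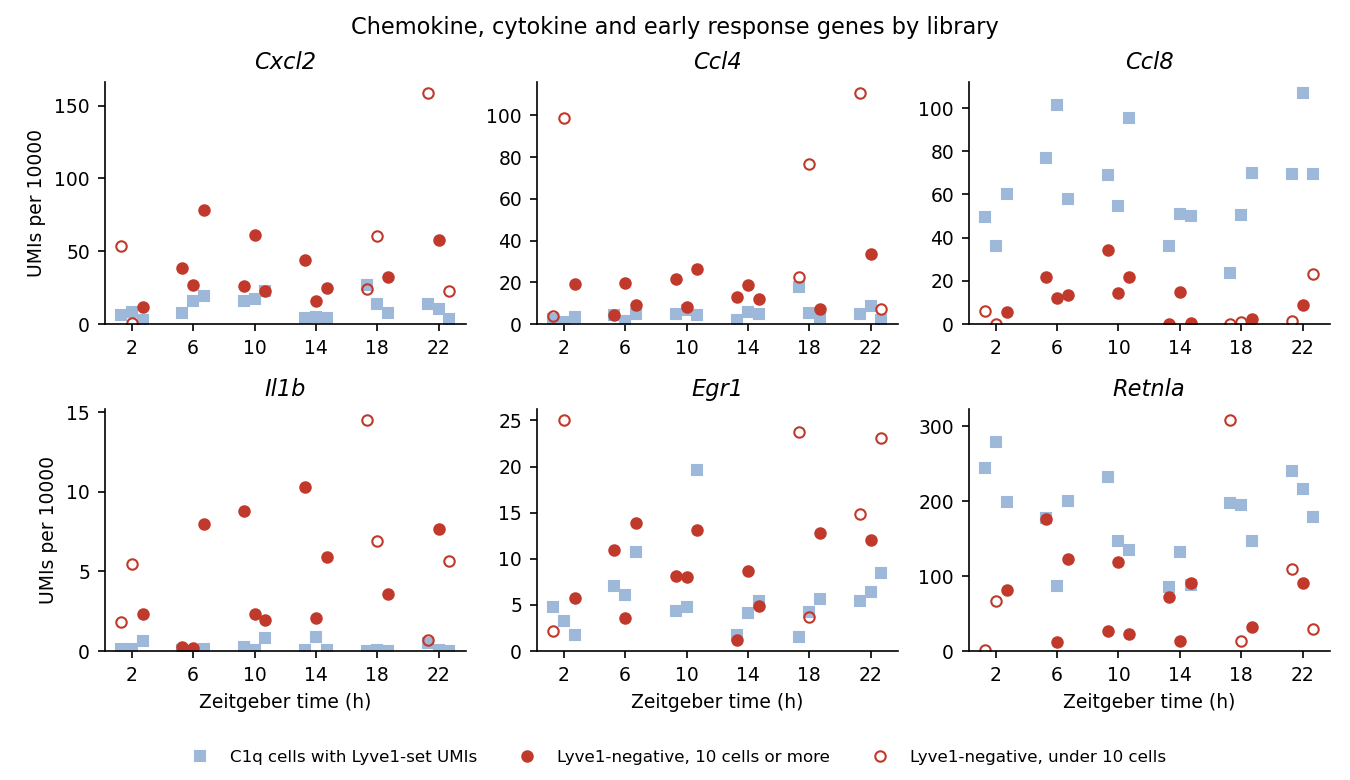
UMIs per 10000 of Cxcl2, Ccl4, Ccl8, Il1b, Egr1 and Retnla against zeitgeber time in hours, 1 point per library, in Lyve1-negative C1q cells (circles, open where a library had under 10 cells) and in C1q cells with Lyve1-set UMIs (squares). Ccl8 is lower in the circles, at a median of 12.8 against 64.5 over the 12 libraries used, and Cxcl2 higher, at 29.4 against 9.05.

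Rhythms were tested to ask whether the time of day changed transcripts in these cells. No gene had a 24 h rhythm after adjustment (0 of 5180 genes, 0% of those tested, edgeR quasi-likelihood F test with Benjamini-Hochberg adjustment, 12 libraries). At an unadjusted p under 0.05 there were 188 genes (3.63%), against 168 by DESeq2 and 135 by a Kendall test against cosine templates, each with 0 genes after adjustment. With 1 library each at ZT2, ZT18 and ZT22, the spread between mice at those times could not be measured. The same fit on C1q cells with Lyve1-set UMIs of the same 12 libraries gave 14 of 9732 genes (0.144%). Nr1d1, Nr1d2, Dbp, Per3 and Arntl were among them. It gave 7 of 5095 (0.137%) once the summed UMIs of each library were thinned to those of the Lyve1-negative cells. That thinning matched UMIs but not cells, which in ZT22 replicate 2 numbered 100 against 14 Lyve1-negative cells. The part of the number of cells in these counts was not tested. In other Ptprc-positive cells the fit gave 5 of 11113 (0.045%): Cxcl9, Nr1d1, Nr1d2, Dbp and Tspan4.

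The clock genes were few in UMIs. Of 19 listed, 10 were deep enough to be tested, and 3 had an unadjusted p under 0.05 (all adjusted p = 1.00, edgeR). The nuclear receptor gene Nr1d2, a repressor of Arntl, had an amplitude of 1.32 on the log2 scale and a peak at ZT 8.72 (p = 0.00445, n = 12 libraries), and its paralogue Nr1d1 an amplitude of 2.68 and a peak at ZT 8.97 (p = 0.00779). Dbp, a transcription factor of clock output, had an amplitude of 1.39 and a peak at ZT 11.04 (p = 0.0409, n = 12). On GRCm38 the 3 genes lie at chr14:18204054-18239127, chr11:98767932-98775333 and chr7:45705088-45710203.

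Nr1d1 was at 0, 0.421 and 0.0404 per 10000 at ZT2 (replicates 1, 2 and 3), 0.433, 0 and 0.842 at ZT6, 0.127, 0.615 and 0.979 at ZT10, 0.0359, 0.326 and 0.168 at ZT14, 0, 0.103 and 0.0776 at ZT18, and 0, 0 and 0 at ZT22. High values fell at ZT6 and ZT10, but each of those times also had a library near 0, and 1 cell gave 12 of the 18 UMIs of ZT6 replicate 3. Fibroblasts held the gene more often, with a UMI in 41.1% of them against 13.1% of the Lyve1-negative cells (19.6% and 9.32% after thinning), and over all cells of a library Nr1d1 stood at 1.11 to 1.30 at ZT10 and 0.0283 to 0.0633 at ZT22. Nr1d2 was at 0.367, 0.211 and 0.2505 at ZT2, 0.804, 0.241 and 0.421 at ZT6, 0.679, 0.656 and 1.08 at ZT10, 0.233, 0.427 and 0.210 at ZT14, 0.186, 0.513 and 0.310 at ZT18, and 0.228, 0.0545 and 0.107 at ZT22. Its values at ZT10 lay above all those at ZT14, ZT18 and ZT22. Dbp was at 0.0733, 0 and 0.121 at ZT2, 0.186, 0.241 and 0.374 at ZT6, 0.382, 0.369 and 0.685 at ZT10, 0.0538, 1.08 and 0.293 at ZT14, 0, 0 and 0.155 at ZT18, and 0, 0 and 0 at ZT22. The highest Dbp value was that of ZT14 replicate 2, and the other ZT14 libraries lay below all 3 of ZT10. Over all cells Dbp stood at 2.00 to 2.30 at ZT10, and 47.3% of fibroblasts held a Dbp UMI against 18.03% of the Lyve1-negative cells, as 57.96% against 26.8% did for Nr1d2. The part of RNA from other cells in these values was not tested.

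The fitted peaks are given beside those of the C1q cells with Lyve1-set UMIs. A cosine was fitted over all 18 libraries, the 6 with under 10 Lyve1-negative cells included. It gave Nr1d1 an amplitude of 0.274 ± 0.0970 per 10000 (jackknife SE over libraries) and a peak at ZT 8.59 ± 1.12, against 0.501 ± 0.0714 and ZT 8.95 in the Lyve1-set cells. For Nr1d2 the amplitude was 0.255 ± 0.0755 against 0.481 ± 0.0557, with peaks at ZT 9.40 ± 1.02 and ZT 9.85. For Dbp it was 0.270 ± 0.0690 against 0.816 ± 0.129, with peaks at ZT 10.8 ± 1.32 and ZT 10.7. These amplitudes are absolute and were not scaled to the mean level, which was also lower in the Lyve1-negative cells. The means were 0.232 against 0.413 for Nr1d1, 0.387 against 0.504 for Nr1d2 and 0.223 against 0.659 for Dbp. The difference in rhythm itself, tested as an interaction on the log scale, did not pass for Nr1d1 (p = 0.852, n = 12), Nr1d2 (p = 0.207) or Dbp (p = 0.0439, adjusted p = 1.00 for all 3, edgeR). Over the 12 libraries the level of Dbp was lower than in the Lyve1-set cells in all of them (0.328 against 0.927).

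Arntl, the partner of Clock, had only 42 UMIs in the 366 cells, too few for the test. Its amplitude over 18 libraries was 0.0571 ± 0.0481 around a mean of 0.0889. In the Lyve1-set cells the amplitude was 0.212 ± 0.0239 around a mean of 0.245, with a peak at ZT 0.0378. The highest levels were those of ZT22 replicate 1 (0.456 per 10000, 8 cells in all) and of ZT14 replicate 1 (0.323 per 10000, 18 UMIs in 8 of 29 cells), where the other ZT14 libraries were at 0 and 0.0210.

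The E-box CACGTG, the hexamer to which Clock and Arntl bind, was searched in RefSeq promoter windows of 300 bases (250 before to 50 after each start site, GRCm38). It reads the same on both strands. It occurred in 7.17% of 32544 windows and in a window of 5 of the 16 clock genes that had one (Per1, Cry1, Tef, Ciart and Bhlhe41). None of the windows of Nr1d1, Nr1d2, Dbp or Arntl held it. Bases outside these windows were not searched. The surroundings of a match are shown for the best covered clock genes that hold one, 30 bases each with that E-box in capitals, for the single match of Per1 at chr11:69098771-69098800 (plus strand) and for the first of 3 matches in the window of Ciart at chr3:95882327-95882356 (minus strand).
Per1: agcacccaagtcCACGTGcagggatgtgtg
Ciart: tgcatctagagtCACGTGttgccggtaagc
Per1, a repressor of the loop that is also an early response gene, had 386 UMIs, the most of the clock list, and ranged from 0.552 to 1.96 per 10000 (median 1.16) with a log2 amplitude of 0.16 (p = 0.818, n = 12). Ciart, another repressor, ranged from 0.0805 to 0.763 (median 0.297, log2 amplitude 0.69, p = 0.128, n = 12). The other clock genes tested, Clock, Cry1, Tef, Nfil3 and Bhlhe40, had p of 0.388 or more. Nfil3 and Bhlhe40 stood at 0.805 and 0.550 over 18 libraries. In the Lyve1-set cells they stood at 0.211 and 0.0839, and in other Ptprc-positive cells at 0.655 and 0.900. Of 6 clock genes in the comparison of levels with Lyve1-set cells none was higher and 1 (Dbp) was lower. Dbp reached the minimum of 0.5 per 10000 in the Lyve1-set cells alone. The 1 clock gene at the minimum in both groups was neither higher nor lower.

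**Figure D5:**
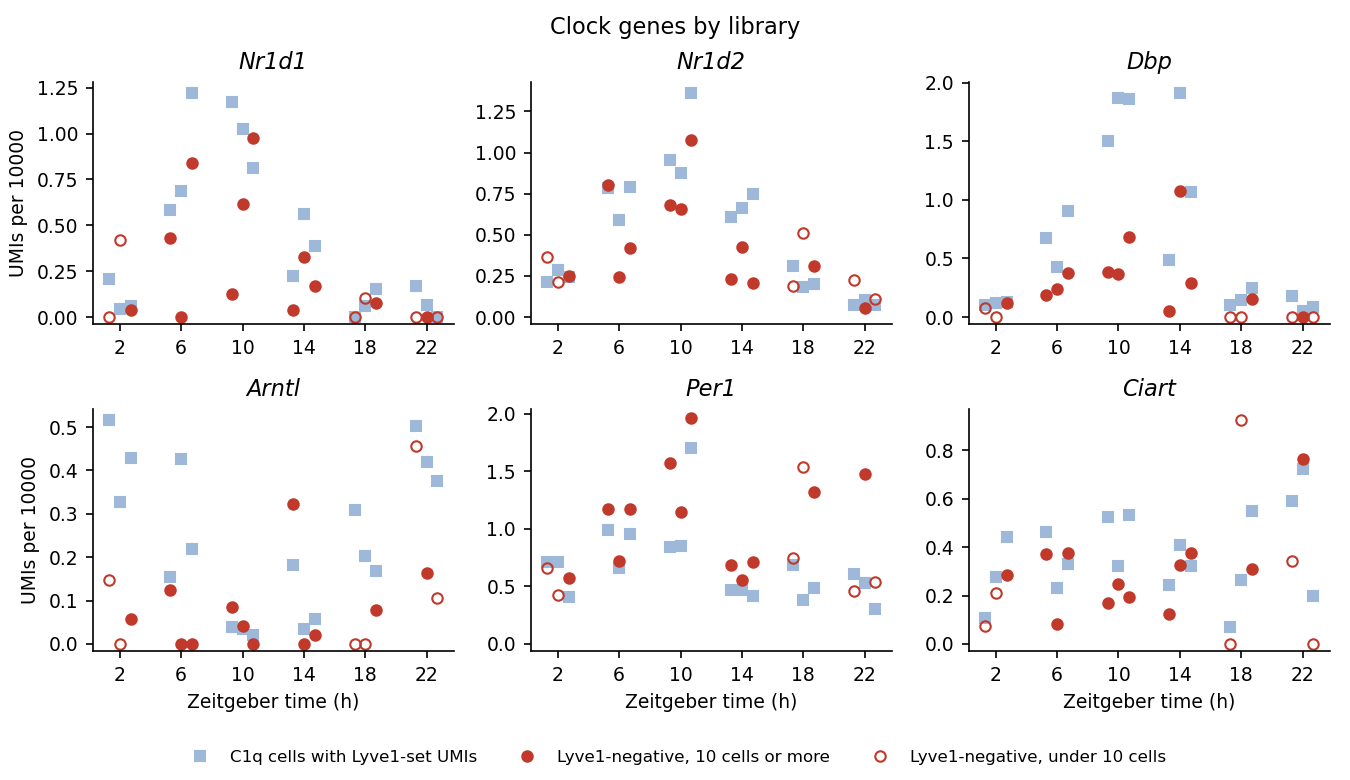
UMIs per 10000 of Nr1d1, Nr1d2, Dbp, Arntl, Per1 and Ciart against zeitgeber time in hours, 1 point per library, in Lyve1-negative C1q cells (circles, open where a library had under 10 cells) and in C1q cells with Lyve1-set UMIs (squares). The circles of Nr1d1 and Nr1d2 reach their highest values at ZT10 replicate 3 (0.979 and 1.08), and those of Nr1d1 are at 0 in all 3 libraries of ZT22.

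Outside the clock, the 10 genes with the smallest p (Fabp4, Car3, Cxcl9, Slpi, Pdgfa, Lepr, Errfi1, Mucl1, Cd28 and Ube2c) had adjusted p of 0.542 or more (edgeR), and single cells weighed heavily in most of them. One cell of ZT22 replicate 2 gave 107 of the 130 Fabp4 UMIs there, 1 gave all 89 Car3 UMIs and 1 all 50 Slpi UMIs. One cell of ZT2 replicate 3 gave 80 of 83 Cxcl9 UMIs, and 1 of ZT10 replicate 2 all 66 Mucl1 UMIs. Fabp4 and Car3 are best known from fat cells and Mucl1 and Slpi from epithelia. Leaving out ZT2 replicate 3 brought Car3 past the threshold (adjusted p = 0.000715) and leaving out ZT18 replicate 3 brought Slpi (0.0203), each as the only gene.

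Of the lists, 5 of 19 chemokines had an unadjusted p under 0.05 (Ccl7, Ccl22, Cxcl3, Cxcl9 and Cxcl12), 1 of 24 immediate early genes (Klf6), 2 of 14 NF-kappaB targets and cytokines, 4 of 6 cell cycle genes and 0 of 7 MHC class II genes, beside 3.63% of all genes, and 0 after adjustment. Some of these genes were held by few cells. Cxcl9 had UMIs in 4 Lyve1-negative cells. For Cxcl3, 1 cell of ZT22 replicate 2 gave 165 of the 394 UMIs and 4 cells of ZT14 replicate 1 gave 213. Only 22 cells held 3 or more of the 8 listed cell cycle genes. For Ccl8 (p = 0.115, n = 12), Mgl2 (p = 0.146), Fos (p = 0.494), Egr1 (p = 0.669) and Cxcl2 (p = 0.636) the unadjusted p was above 0.05. Ccl7 had its fitted peak at ZT 6.92 (p = 0.0198, n = 12) and Cd163 at ZT 8.38 (p = 0.0118).

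The rhythm of 1 gene of 10030 (0.00997%) differed between Lyve1-negative C1q cells and other Ptprc-positive cells, Fabp4 (adjusted p = 0.000243, edgeR interaction test), a fatty acid carrier. Its level of 7.09 per 10000 in ZT22 replicate 2 came mostly from the cell named above, and in the other 11 libraries used it was at most 0.608. Without that library the adjusted p was 0.594. At an unadjusted p under 0.05 there were 319 genes. Against C1q cells with Lyve1-set UMIs the count was 0 of 8776 (0%), with 263 at an unadjusted p under 0.05, and 0 by DESeq2 (188).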

How the data were processed

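Counts are UMI counts per gene and barcode of 18 libraries that the authors deposited after alignment to mm10 with Cell Ranger 3.1.0, with no normalization. No column of the authors' comparisons was used. The cells, gene lists and tests were chosen with earlier results of these data known. No doublet caller was run. Instead the fits were repeated without the largest 5% of cells, without cells with 1% or more collagen UMIs, and with C1q genes at 6 UMIs or more. UMIs were summed per library and cell group. Rhythms were tested with edgeR 4.0.16 in R 4.3.3 (TMM factors, filterByExpr, quasi-likelihood F test of a 24 h cosine and sine, Benjamini-Hochberg, threshold 0.05) and repeated with DESeq2 1.42.0. Rhythm differences had the library as a term. Levels had a pseudocount of 0.1 per 10000 and a minimum of 0.5. Levels, shares and figures used Python 3.11.15, numpy 2.4.6, pandas 2.3.3, scipy 1.17.1 and matplotlib 3.10.9. Genes named are the markers and the genes of the rule, the 10 highest and 10 lowest annotated genes against other Ptprc-positive cells and the 5 and 5 against C1q cells with Lyve1-set UMIs, the clock list, the 10 smallest rhythm p, genes that passed a difference test, and list members that passed or were abundant. The lowest genes were taken outside the Lyve1 set. Genes named by their top cell or by co-occurrence were chosen after their values were seen. Intervals and the limit that a count of 0 allows cover counting error only. Positions are those of GENCODE M21. Scripts that run a test across genes were tested on simulated data. Some items are not reported here.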

Additional observations from a re-analysis of the deposited data

Results flagged for a closer look

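The rhythm of Fabp4 differed between Lyve1-negative C1q cells and other Ptprc-positive cells, with an adjusted p of 0.000243 in the edgeR interaction test over 12 libraries. One cell of ZT22 replicate 2 held 107 of the 130 Fabp4 UMIs of that library, and without that library the adjusted p was 0.594.

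Outside the filtered cells, 35 barcodes that failed the filter on genes or mitochondrial UMIs met the C1q, Pdgfra and Lyve1-set conditions. They had a median of 3218 UMIs, of which 16.8% were mitochondrial, and were not analysed further.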

How the results depend on the processing

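The counts of higher and lower genes depended on the pseudocount, the comparator and the depth. Against other Ptprc-positive cells, 11 genes were higher and 54 lower. A pseudocount of 0.5 gave 5 and 34, members without Ly6c2 UMIs (an alternative chosen after seeing the data) gave 4 higher, a comparator that kept cells with Pdgfra gave 135 lower, and no minimum level gave 128 lower. Against C1q cells with Lyve1-set UMIs, 65 genes were higher and 145 lower. Thinning to 5000 UMIs gave 37 and 83, a pseudocount of 0.5 gave 80 lower, and members without Ly6c2 UMIs gave 101 higher. Leaving out 1 library at a time gave 9 to 16 higher and 52 to 69 lower genes against other Ptprc-positive cells, and 64 to 110 higher (110 without ZT6 replicate 2) and 138 to 179 lower against C1q cells with Lyve1-set UMIs. Without ZT2 replicate 3 these 4 counts were 12, 54, 64 and 141. The causes were not tested.

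No rhythmic gene in the Lyve1-negative cells was called with RLE factors, with DESeq2, with all 18 libraries, with C1q genes at 6 UMIs or more, without the largest cells, without collagen-rich cells, or in members without Ly6c2 UMIs. Zeitgeber time as 6 levels called 1 gene (Car3). With no filter on low counts 101 genes were called, of which 81 also passed the filter and 15 had all their UMIs in 1 library, and the 2 rhythm differences rose to 42 genes (other Ptprc-positive cells) and 34 genes (Lyve1-set cells). The single difference from other Ptprc-positive cells fell to 0 genes when the comparator kept cells with Pdgfra (Fabp4 adjusted p = 0.837, edgeR). Leaving out 1 library at a time gave 0 to 1 rhythmic genes, 1 to 4 differences from other Ptprc-positive cells (4 without ZT2 replicate 3, and 2 each without ZT14 replicate 3 and ZT18 replicate 3, and 1 other than Fabp4 without ZT22 replicate 2) and 0 to 5 from Lyve1-set cells (5 without ZT14 replicate 1). In C1q cells with Lyve1-set UMIs, 14 genes became 7 with thinned UMIs and 69 with all 18 libraries, both added after seeing the data.

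The share kept an amplitude of 0.670 points with all cells as the denominator (p = 0.330), 2.00 with C1q genes at 6 UMIs or more (p = 0.482), 2.54 with Ptprc UMIs required of all cells (p = 0.402) and 4.13 after thinning (p = 0.119), each by a permutation test, and 2.25 to 4.52 points (p = 0.0218 to 0.511) when 1 library was left out.

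With the replicate block (the collection day as a term), 0 genes were rhythmic, 1 differed from other Ptprc-positive cells and 0 from Lyve1-set cells, so that no count of calls moved. Same-numbered libraries did not deviate together (correlations from -0.148 to 0.273 over 9 pairs, against -0.292 to 0.218 over 18 pairs of different numbers), and the numbers were not used as pairs.

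The libraries used held 102177 to 1237678 UMIs of Lyve1-negative cells, and 10 of the 19 clock genes had enough of them to be tested.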
